A study of Sus scrofa with 18 samples.

Results

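The genes described here are 9 transcription factors of squamous epithelium: TP63, SOX2, GRHL1, GRHL2, GRHL3, OVOL1, ZNF750, KLF4 and KLF5. They were picked by symbol from a table of read counts for 27339 pig genes, and all 9 were found in it. They were followed across 18 RNA-seq libraries, 3 from each of 6 groups. The groups were tumours of the nose, mouth and scrotum from a double knock-in (DIK) pig, and normal nose, mouth and scrotum of wild-type (WT) pig. The DIK line carries parts of a Tet-on system, in which the drug Dox (doxycycline) switches gene expression on, and of a system built on the phiC31 integrase, a recombinase. Dox was given to 3 DIK founders at 7 months of age and also to age-matched WT pig, so tumour and normal libraries share the drug. Tumours grew in 1 DIK founder, and tissue was taken 8 months after induction. All 9 DIK libraries therefore come from 1 animal, and how many WT pigs were sampled is not stated in the labels. The spread between 3 libraries of a group may be technical or regional, and every p-value below measures only that spread.

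A stratified squamous epithelium, such as epidermis or the lining of the mouth, renews itself from a basal layer whose cells stop dividing as they move up and fill with keratins and envelope proteins. TP63 encodes p63, the factor that defines the basal layer, and SOX2 is a lineage factor of the foregut and of squamous cancers that often acts beside p63. The grainyhead-like factors GRHL1, GRHL2 and GRHL3 drive cell junction and barrier genes. OVOL1, ZNF750 and KLF4 act in differentiating layers, where OVOL1 and ZNF750 are known for ending the basal programme, and KLF5 is a zinc-finger factor of proliferating epithelium.

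Total counts ran from 418665 in WT nose replicate 1 to 5041470 in WT nose replicate 3. Levels are given in CPM, the usual unit of read counts scaled by the library total, and a count of 3, taken as the limit of detection, came to between 0.4828 and 5.758 CPM. Intervals and limits given below for counts cover counting error only. The tissue labels were checked against marker genes. Muscle markers were abundant in the WT libraries: summed skeletal muscle markers reached 99420 to 141600 CPM in WT nose and 123900 to 315800 CPM in WT scrotum, against at most 936 CPM in any DIK library, and summed smooth muscle markers reached 41640 to 74060 CPM in WT mouth. Summed epithelial markers (CDH1, EPCAM, DSP, JUP, CDH3 and 4 keratins, with KRT14 not in the table) were 23520 to 31590 CPM in DIK nose, 42510 to 50930 in DIK mouth and 43560 to 64510 in DIK scrotum, against 2740 to 3485 in WT nose. HOX genes of the rear body axis went against the labels of 2 sites: their sum was 42.2, 70.8 and 66.9 CPM in the libraries labelled WT mouth and 11.7, 20.4 and 18.7 in those labelled DIK mouth. It was 3.36, 6.52 and 4.26 CPM in the libraries labelled WT scrotum and 4.19, 3.93 and 0.625 in those labelled DIK scrotum. The groups keep their labels here, and "mouth" and "scrotum" mean the libraries labelled so. The words "oral" and "scrotal" likewise refer to the label only, and the true site of these libraries was not settled.

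A pair of WT libraries stood apart from the others of their group. WT scrotum replicate 2 had an epithelial marker sum of 13350 CPM, against 1175 and 225 CPM in the other WT scrotum libraries, and its level of KRT5, a basal keratin, was 12050 CPM. WT mouth replicate 1 had an epithelial marker sum of 4799 CPM, against 197 and 185 CPM, and a gland marker sum of 1762 CPM, against 77.9 and 99.9. The differences of the 9 factors at these sites are given with and without them where they change.

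All but 1 of the 9 factors were called higher in the tumours of the nose and mouth than in the same WT tissue, and GRHL2 was the one not called at either site. A gene is called changed where edgeR's quasi-likelihood test, adjusted by the Benjamini-Hochberg method over the 12895 genes tested, gave p under 0.05. By this rule 8 of the 9 were called higher in DIK nose and 8 in DIK mouth, where 21.9% and 22.7% of all genes tested were called higher. In the scrotum 4 of 9 were called higher (SOX2, GRHL3, OVOL1 and KLF5), where 19.4% of all genes were. None of the 9 was called lower at any site, where 20.1%, 24.3% and 24% of all genes were (nose, mouth and scrotum). All 3 DIK libraries lay above all 3 WT libraries for 9 of the 9 in the nose, 8 in the mouth and 6 in the scrotum, and the shares of all genes for which this held were 29.2%, 29% and 24%. The median log2 difference of the 9 was 3.82 in the nose, 4.80 in the mouth and 1.56 in the scrotum, and the medians of all genes tested were 0.03, -0.04 and -0.09. With SOX2 in the nose at its lower bound, the nose median was 3.61. Without WT scrotum replicate 2, all 9 were called higher in the scrotum, where 24% of 13334 genes were, and their median difference was 3.80. Without WT mouth replicate 1, all 9 were called higher in the mouth, where 22.2% of 13219 genes were, and their median difference was 5.86. With scaling by library size alone the mouth count was again 8, while the share of higher genes among all those called there was 36.1% in place of 48.2%. These are bulk tissues, so fewer cells of a type and less RNA per cell cannot be told apart. The summed epithelial markers were higher in every DIK than in every WT library, as were the summed factors, and their part in these differences was not tested. Among the tumours the order was different: DIK nose had the lowest epithelial sums and the highest factor sums (439.3 to 542.5 CPM, against 351.8 to 397.5 in DIK mouth and scrotum). Single genes weigh heavily in both sums. KRT5 alone was at 20590 to 28370 CPM in DIK nose and 39050 to 60690 in the other tumours. KLF4 was at 134.9 to 189.8 CPM in DIK nose and 56.1 to 87.0 in the others. CDH1, another epithelial marker, overlapped between the tumours (212.1 to 285.7 CPM in DIK nose, 212.5 to 319.6 in DIK scrotum). KLF5 and OVOL1 had their highest means in DIK scrotum. SOX2 passed the filter on low counts in 5 libraries, all of them DIK, so it was tested only because of the groups where it was high. Without SOX2 the counts called higher were 7 of 8 in the nose, 7 of 8 in the mouth and 3 of 8 in the scrotum. GRHL1, GRHL3, OVOL1 and KLF5 passed that filter in all 9 DIK libraries but in only 3, 1, 2 and 2 WT libraries. The filter needs 3 libraries, so GRHL3, OVOL1 and KLF5 also entered the test only through their DIK libraries. They were called at all 3 sites, and with SOX2 they are the 4 called in the scrotum. None of the 4 scrotum calls is thus free of this selection.

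**Figure D1:**
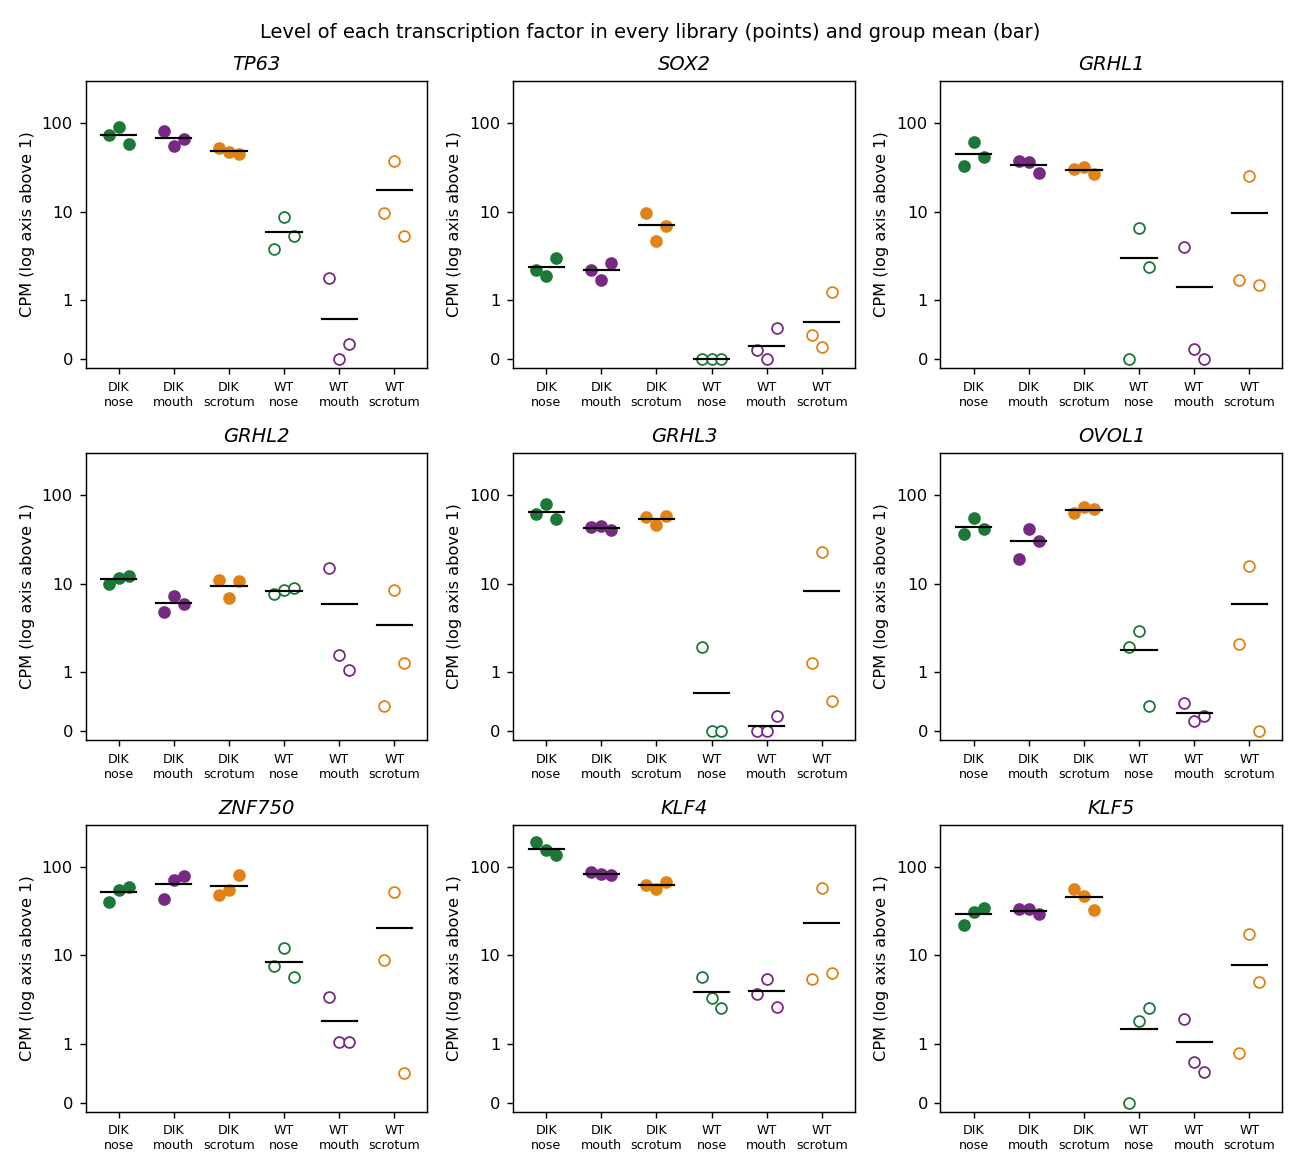
Level of each of the 9 factors in all 18 libraries, in CPM on an axis that is logarithmic above 1 CPM and linear below, with bars at the group means, 1 point per library, filled for DIK and open for WT, and 3 libraries per group. TP63 lay between 44.4 and 91.5 CPM in the 9 DIK libraries and at or below 37.9 CPM in the 9 WT libraries, whereas the GRHL2 points of the 2 genotypes overlap.

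TP63 was high in every tumour library, while its WT levels ran from none to moderate. Its level was 73.8, 91.5 and 57.9 CPM in DIK nose, 81.0, 55.9 and 66.4 in DIK mouth, and 52.0, 47.9 and 44.4 in DIK scrotum. In WT tissue it was 3.84, 8.76 and 5.34 CPM in the nose, 1.77, 0 and 0.262 in the mouth, and 9.65, 37.9 and 5.27 in the scrotum. On this scale every tumour library lay above every WT library, and the nearest WT library was scrotum replicate 2. That order rests on the TMM scaling. DIK scrotum replicate 3 held 71 TP63 counts of a total of 2024959, and WT scrotum replicate 2 held 186 of 4644189. The order of the group means was DIK nose (74.4 ± 16.8 CPM, SD, n = 3), DIK mouth (67.8 ± 12.6), DIK scrotum (48.1 ± 3.80), WT scrotum (17.6 ± 17.7), WT nose (5.98 ± 2.52) and WT mouth (0.678 ± 0.955). DIK nose and DIK mouth overlapped, as did WT scrotum and WT nose. TP63 was 3.52 ± 0.698 log2 units (± SE) higher in DIK than in WT nose and 6.46 ± 0.81 higher in the mouth, with adjusted p of 0.000944 and 1.59e-05 in edgeR. The difference in the scrotum, 1.42 ± 0.604, was not called (adjusted p = 0.0682 in edgeR), while DESeq2 called it (adjusted p = 0.0393). It was 2.73 and called without WT scrotum replicate 2 (adjusted p = 0.000166 in edgeR). The mouth difference was 8.86 without WT mouth replicate 1 and 5.86 without WT mouth replicate 2. The counts are per gene, so the TA and ΔN forms of p63, which start at different promoters, are not separated here.

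SOX2 had its highest levels in the tumour labelled scrotum. Its level there was 9.78, 4.65 and 6.88 CPM, against 2.19, 1.89 and 3.00 in DIK nose and 2.22, 1.70 and 2.67 in DIK mouth. No SOX2 count was found in the 3 WT nose libraries. WT mouth gave 0.161, 0 and 0.525 CPM and WT scrotum 0.420, 0.204 and 1.25. Each tumour library was above each WT library, and the 3 scrotal tumour libraries were above the other tumours. In WT nose replicate 1 a count of 3 came to 5.758 CPM. Its lack of SOX2 counts therefore cannot place it below tumour levels under that value. In the nose 27 SOX2 counts in DIK stood against 0 in WT, which is at least 6.22-fold higher by a limit of 3 counts over the WT group. In the mouth 24 counts stood against 3, a depth-scaled ratio of 11.4 with a 95% counting interval of 3.47 to 59.3. In edgeR its adjusted p was 0.00166 in the nose, 0.00268 in the mouth and 0.000504 in the scrotum, calls that carry little weight for a gene that entered the test through its DIK libraries. The log2 difference was 3.27 ± 0.782 in the mouth and 3.44 ± 0.657 in the scrotum. It was 4.24 in the mouth without WT mouth replicate 3, and 4.52 in the scrotum without WT scrotum replicate 3. WT scrotum replicate 2, which was the highest WT scrotum library for each of the other 8 factors, held a single SOX2 count.

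The grainyhead-like genes did not move alike. GRHL3, the member best known for epidermal barrier formation, was close to absent from most WT libraries. It reached 60.9, 78.9 and 54.1 CPM in DIK nose, 43.4, 44.5 and 40.5 in DIK mouth, and 57.0, 45.8 and 57.5 in DIK scrotum. The WT levels were 1.92, 0 and 0 CPM in the nose, 0, 0 and 0.262 in the mouth, and 1.26, 23.0 and 0.502 in the scrotum. The 3 sites of tumour thus lay within a 1.95-fold range, and WT scrotum replicate 2 was the only WT library above 2 CPM. The group means ran from DIK nose (64.6 ± 12.8 CPM, SD, n = 3) through DIK scrotum (53.4 ± 6.64) to DIK mouth (42.8 ± 2.03), and the last of these did not overlap the others. The nose held 742 GRHL3 counts in DIK against 1 in WT, a ratio of 512 with a 95% counting interval of 91.7 to 20300. The mouth held 472 against 1, a ratio of 675 with an interval of 120 to 26700. GRHL3 was called higher in the nose (adjusted p = 0.00043), the mouth (0.000149) and the scrotum (0.0188) in edgeR. The scrotum difference was 2.60 ± 0.812 log2 units and rose to 5.998 without WT scrotum replicate 2, while without WT scrotum replicate 1 it was 2.15 and not called (adjusted p = 0.0553 in edgeR). Fitted on the scrotum groups alone it was not called either (adjusted p = 0.113 in edgeR). Its fitted nose difference, 8.60, was 10.95 without WT nose replicate 1 and 7.48 without WT nose replicate 3. Its fitted mouth difference, 8.76, was 10.28 without WT mouth replicate 3.

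GRHL1, which acts on desmosomal genes, was between 26.9 and 61.4 CPM in the 9 tumour libraries. Its WT levels were 0, 6.57 and 2.35 CPM in the nose, 4.02, 0.174 and 0 in the mouth, and 1.68, 25.7 and 1.51 in the scrotum. Its tumour libraries all lay above the WT libraries, although the lowest, DIK scrotum replicate 3 at 26.9 CPM, was next to WT scrotum replicate 2. This order too rests on the TMM scaling, with 43 GRHL1 counts of a total of 2024959 against 126 of 4644189. The difference was 3.61 ± 1.09 log2 units in the nose and 4.42 ± 1.08 in the mouth, called with adjusted p of 0.0171 and 0.0044 in edgeR. The nose value was 4.51 without WT nose replicate 2, and 3.23 and not called without WT nose replicate 3 (adjusted p = 0.0871 in edgeR). The mouth value was 7.88 without WT mouth replicate 1. In the scrotum the difference of 1.56 ± 0.921 was not called (adjusted p = 0.19 in edgeR), and without WT scrotum replicate 2 it was 4.22 and called (adjusted p = 0.00112 in edgeR).

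GRHL2, the family member shared by simple, glandular and stratified epithelia, was the only factor of the 9 whose highest level was in a WT library. Its level was 9.95, 11.6 and 12.3 CPM in DIK nose, 4.75, 7.29 and 5.86 in DIK mouth, and 10.9, 6.79 and 10.6 in DIK scrotum. In the WT libraries it was 7.68, 8.40 and 8.98 CPM in the nose, 14.97, 1.57 and 1.05 in the mouth, and 0.420, 8.56 and 1.25 in the scrotum. WT nose was even from library to library, while WT mouth and WT scrotum each had 1 library far above the other two. In the nose the libraries of the 2 genotypes did not overlap, but the means, 11.3 ± 1.196 CPM in DIK and 8.35 ± 0.651 in WT (SD, n = 3), differed by only 0.40 ± 0.809 log2 units (adjusted p = 0.727 in edgeR). The mouth difference was -0.02 ± 0.779 (adjusted p = 0.988 in edgeR). Without WT mouth replicate 1 it was 2.09 and called higher (adjusted p = 0.0194 in edgeR). The scrotum difference was 1.31 ± 0.836 (adjusted p = 0.22 in edgeR), and 3.30 and called without WT scrotum replicate 2 (adjusted p = 0.0112 in edgeR). WT mouth replicate 1 and the WT nose libraries, which held GRHL2 at 7.68 CPM or more, were also rich in markers of simple or glandular epithelium. EPCAM, a surface protein of simple epithelia, was at 180.4, 187.7 and 154.1 CPM in WT nose and 81.6 CPM in WT mouth replicate 1, but at 0.872 and 0.787 CPM in the other WT mouth libraries. WT scrotum replicate 2, with 8.56 CPM of GRHL2, had 5.71 CPM of EPCAM. Gland markers summed to 51560, 89350 and 84870 CPM in WT nose and to at most 40.9 CPM in DIK nose. The part of these markers in the GRHL2 levels was not tested.

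The ratio of 2 family members within a library does not depend on the library's scaling, and these ratios, picked after their values were seen, are given as a description with no test. The count ratio of GRHL3 to GRHL2 lay between 4.4 and 9.13 in the 9 tumour libraries. It was at most 0.25 in WT nose and WT mouth, and 3, 2.69 and 0.4 in WT scrotum, where the first value rests on 3 counts against 1. The count ratio of GRHL1 to GRHL2 was 3.34, 5.3 and 3.4 in DIK nose and 7.93, 4.97 and 4.68 in DIK mouth, against at most 0.783 in WT nose and WT mouth. In the scrotum it was 2.82, 4.74 and 2.53 in DIK and 4, 3 and 1.2 in WT, so the genotypes overlapped there.

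**Figure D2:**
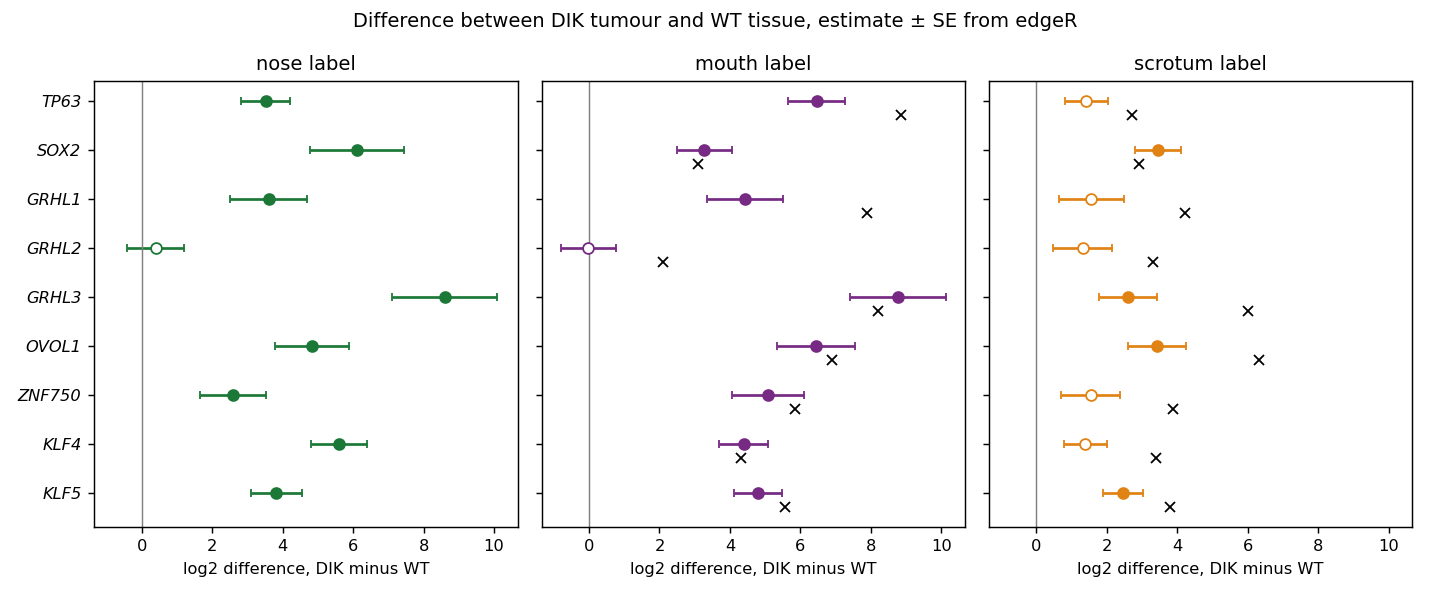
Log2 difference between DIK and WT for each of the 9 factors at each site, with bars of 1 SE; filled points were called at adjusted p under 0.05 in edgeR, open points were not, and black crosses give the value without WT mouth replicate 1 (mouth) or WT scrotum replicate 2 (scrotum). GRHL2 sits near 0 in the nose (0.40) and mouth (-0.02), and leaving out WT scrotum replicate 2 moves all scrotum values but that of SOX2 upward.

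OVOL1, a zinc-finger repressor that moves keratinocytes out of the basal state, was highest in the tumour labelled scrotum. It was at 35.9, 54.4 and 41.2 CPM in DIK nose, 19.0, 41.1 and 30.7 in DIK mouth, and 62.0, 72.9 and 70.0 in DIK scrotum. WT values were 1.92, 2.92 and 0.427 CPM in the nose, 0.483, 0.174 and 0.262 in the mouth, and 2.098, 15.7 and 0 in the scrotum. All tumour libraries exceeded all WT libraries, and the scrotal tumour did not overlap the other tumours. The difference was 4.83 ± 1.04 log2 units in the nose, 6.44 ± 1.1 in the mouth and 3.42 ± 0.809 in the scrotum, with adjusted p of 0.00203, 0.000302 and 0.00355 in edgeR. The nose value was 6.09 without WT nose replicate 2 and 4.01 without WT nose replicate 3. The scrotum value was 6.31 without WT scrotum replicate 2 and 2.84 without WT scrotum replicate 3, and it was not called when the scrotum groups alone were fitted (adjusted p = 0.0572 in edgeR).

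ZNF750, a p63 target that turns on terminal differentiation genes, had nearly the same level in the 3 tumours. It was at 40.5, 54.9 and 59.8 CPM in DIK nose, 43.7, 71.2 and 78.9 in DIK mouth, and 47.5, 55.1 and 81.3 in DIK scrotum. Levels in WT were 7.68, 12.1 and 5.77 CPM in the nose, 3.38, 1.05 and 1.05 in the mouth, and 8.81, 52.2 and 0.502 in the scrotum. WT scrotum replicate 2 fell within the tumour range, so only 6 of the 9 tumour libraries lay above all WT libraries. The mouth difference of 5.07 ± 1.02 log2 units was called (adjusted p = 0.0012 in edgeR) and was 5.86 without WT mouth replicate 1. The nose difference of 2.60 ± 0.947 was called by a narrow margin (adjusted p = 0.0403 in edgeR). That call was lost when any 1 of the 6 nose libraries was left out, with differences of 2.29 to 3.05 and adjusted p of 0.0576 to 0.148 in edgeR. In the scrotum the difference of 1.54 ± 0.845 was not called (adjusted p = 0.158 in edgeR), and it was 3.88 and called without WT scrotum replicate 2 (adjusted p = 0.000299 in edgeR).

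KLF4, a factor of differentiating layers and barrier formation, was stepped across the tumours. Its level was 189.8, 156.7 and 134.9 CPM in DIK nose, 87.0, 83.8 and 81.6 in DIK mouth, and 62.6, 56.1 and 67.5 in DIK scrotum. Among WT libraries it was 5.76, 3.29 and 2.56 CPM in the nose, 3.70, 5.40 and 2.62 in the mouth, and 5.46, 57.9 and 6.27 in the scrotum. No 2 tumours overlapped, and WT scrotum replicate 2 reached the level of the scrotal tumour. The means were 160.5 ± 27.7, 84.1 ± 2.74 and 62.1 ± 5.71 CPM in DIK nose, mouth and scrotum (SD, n = 3). KLF4 was 5.61 ± 0.791 log2 units higher in DIK than in WT nose and 4.397 ± 0.695 higher in the mouth, with adjusted p of 5.26e-05 and 0.000116 in edgeR. The scrotum difference of 1.39 ± 0.606 was not called (adjusted p = 0.075 in edgeR; 0.048 and called in DESeq2), and was 3.38 and called without WT scrotum replicate 2 (adjusted p = 4.92e-08 in edgeR).

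The group means of KLF5 ran in the opposite order across the tumours, 29.2 ± 6.53 CPM in the nose, 31.95 ± 2.05 in the mouth and 45.3 ± 12.0 in the scrotum (SD, n = 3). It was at 21.9, 31.2 and 34.4 CPM in DIK nose, 33.2, 33.0 and 29.6 in DIK mouth, and 56.2, 47.2 and 32.5 in DIK scrotum. Its levels in WT tissue were 0, 1.83 and 2.56 CPM in the nose, 1.93, 0.697 and 0.525 in the mouth, and 0.839, 17.5 and 5.02 in the scrotum. The 3 tumours overlapped for KLF5, and all 9 tumour libraries lay above the WT libraries. It was called higher at all 3 sites, by 3.82 ± 0.715 log2 units in the nose, 4.80 ± 0.683 in the mouth and 2.46 ± 0.569 in the scrotum, with adjusted p of 0.000512, 3.65e-05 and 0.00234 in edgeR. The mouth value was 5.56 without WT mouth replicate 1, and the scrotum value 3.80 without WT scrotum replicate 2.

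The count ratio of KLF4 to KLF5, which can be compared between libraries but not read as a molar ratio, was 8.69, 5.02 and 3.92 in DIK nose. It was 2.62, 2.54 and 2.76 in DIK mouth and 1.11, 1.19 and 2.08 in DIK scrotum, so the 3 tumours did not overlap. Over the 9 tumour libraries, which share 1 animal, the log2 levels of KLF4 and KLF5 had a Pearson r of -0.738. Over all 18 libraries, WT scrotum replicate 2 among them, r was 0.453 after the mean of each group was taken away. These 2 values differ both in libraries and in treatment, so their signs cannot be compared. Against WT, the log2 ratio of KLF4 to KLF5 was 1.05 higher in DIK nose, while the DIK minus WT value was -0.15 in the mouth and -0.88 in the scrotum. These values used a prior count of 2, which shrinks ratios that rest on few counts. KLF5 had only 0, 5 and 12 counts in WT nose, 12, 4 and 2 in WT mouth, and 2, 86 and 20 in WT scrotum.

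**Figure D3:**
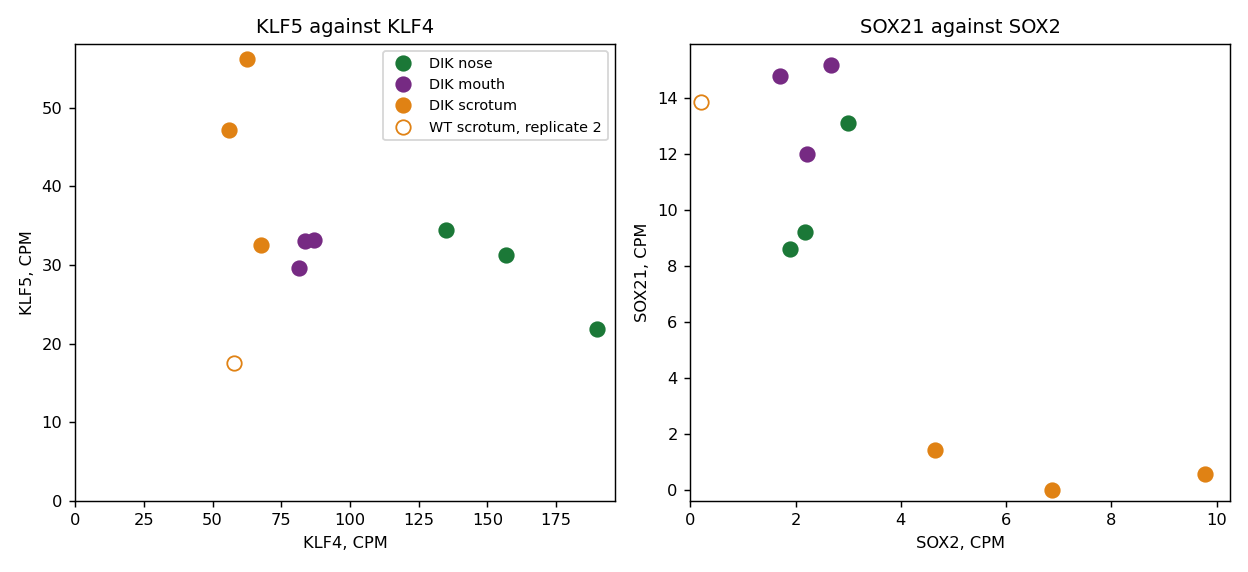
KLF5 against KLF4 (left) and SOX21 against SOX2 (right) in CPM on linear axes, with 1 filled point for each of the 9 DIK libraries and an open point for WT scrotum replicate 2. KLF4 falls from nose (134.9 to 189.8 CPM) to scrotum (56.1 to 67.5 CPM), and the scrotal tumour has the most SOX2 (4.65 to 9.78 CPM) and at most 1.43 CPM of SOX21.

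None of the 9 factors was called different between any 2 of the tumours in edgeR, whose fit pools the spread of all 6 groups. The shares of all genes called were 1.54% for mouth against nose, 5.84% for scrotum against nose and 2.88% for scrotum against mouth. At an unadjusted p under 0.05 there were 0, 2 and 1 of the 9 in these comparisons. DESeq2 also called 0 in each. SOX2 was 1.59 ± 0.552 log2 units higher in DIK scrotum than in DIK nose and 1.70 ± 0.559 higher than in DIK mouth, with adjusted p of 0.105 and 0.13 in edgeR. KLF4 differed by -1.37 ± 0.598 between the scrotal and the nasal tumour (adjusted p = 0.209 in edgeR). Both genes passed when only the 2 groups compared were fitted, where adjusted p in edgeR was 0.0221 and 0.00774 for SOX2 and 0.00114 for KLF4. Among the tumours only, SOX21, a relative of SOX2 in the SoxB group, was high where SOX2 was low. It was at 9.23, 8.62 and 13.1 CPM in DIK nose, 12.0, 14.8 and 15.2 in DIK mouth, and 0.559, 1.43 and 0 in DIK scrotum. WT scrotum replicate 2 had 13.9 CPM of SOX21, and every other WT library had at most 1 count. SOX21 was singled out after its values were seen.

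Count ratios to TP63 set the differentiation factors beside the basal factor. The OVOL1 to TP63 ratio was 0.487, 0.594 and 0.712 in DIK nose, 0.234, 0.735 and 0.462 in DIK mouth, and 1.19, 1.52 and 1.58 in DIK scrotum. The scrotal tumour was above the others in every library. The ZNF750 to TP63 ratio was 0.549, 0.600 and 1.03 in DIK nose, 0.539, 1.27 and 1.19 in DIK mouth, and 0.914, 1.15 and 1.83 in DIK scrotum, and these ranges overlapped. The KLF4 to TP63 ratio ran the other way, at 2.57, 1.71 and 2.33 in DIK nose, 1.07, 1.5 and 1.23 in DIK mouth, and 1.2, 1.17 and 1.52 in DIK scrotum, with the nasal tumour above the others in every library.

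Whether the DIK minus WT difference itself depended on the site was tested as an interaction. No factor was called for mouth against nose, where 8.6% of all genes were called. TP63 was the only one with an unadjusted p under 0.05 there, at 2.93 ± 1.03 log2 units (adjusted p = 0.0925 in edgeR), and DESeq2 called 1 factor. For scrotum against nose, KLF4 was called, at -4.22 ± 0.964 (adjusted p = 0.0162 in edgeR), where 7.65% of all genes were called. For scrotum against mouth, TP63 (-5.03 ± 0.987), GRHL3 (-6.16 ± 1.71) and KLF4 (-3.01 ± 0.881) were called, with adjusted p of 0.00338, 0.029 and 0.0333 in edgeR, where 13.1% of all genes were called. All 4 values are negative, so the excess in the tumour was smaller in the scrotum. The GRHL3 value carries little weight, because GRHL3 entered the test only through its DIK libraries and had 1 count in WT mouth. Without WT scrotum replicate 2, TP63 was -3.73 (adjusted p = 0.00141) and KLF4 against the nose was -2.26 (0.00315), both called in edgeR. GRHL3 was then -2.76 (adjusted p = 0.0972) and KLF4 against the mouth -1.02 (0.11), and both calls were lost in edgeR. TP63 was -7.44 without WT mouth replicate 1 and -4.44 without WT mouth replicate 2, called in both. Leaving out WT nose replicate 2 or 3 ended the KLF4 call against the nose (adjusted p = 0.0576 and 0.0623 in edgeR).

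The WT tissues differed among themselves in the same genes. Against the WT mouth, 6 of the 9 were called higher in WT scrotum (TP63, GRHL3, OVOL1, ZNF750, KLF4 and KLF5), where 13.7% of all genes were called higher. With WT scrotum replicate 2 left out, 2 remained called, TP63 at 3.23 and GRHL3 at 3.08 log2 units. TP63 was lower in WT mouth than in WT nose by -3.07 ± 0.849 log2 units (adjusted p = 0.0172 in edgeR), where 9.92% of all genes were called lower. That value was -5.51 without WT mouth replicate 1. The call was lost without WT mouth replicate 2 (-2.47), WT mouth replicate 3 (-2.78) or WT nose replicate 2 (-2.71). KLF4 was called higher in WT scrotum than in WT nose (2.85, adjusted p = 0.0358 in edgeR), where 2.6% of all genes were called higher. Its value was 0.88 and not called without WT scrotum replicate 2. As a share of the DIK scrotum mean, that library held 93.2% of KLF4, 90.7% of GRHL2, 85.8% of GRHL1, 85.1% of ZNF750 and 78.8% of TP63. It held less of the others: 43.1% of GRHL3, 38.7% of KLF5, 23% of OVOL1 and 2.87% of SOX2.

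**Figure D4:**
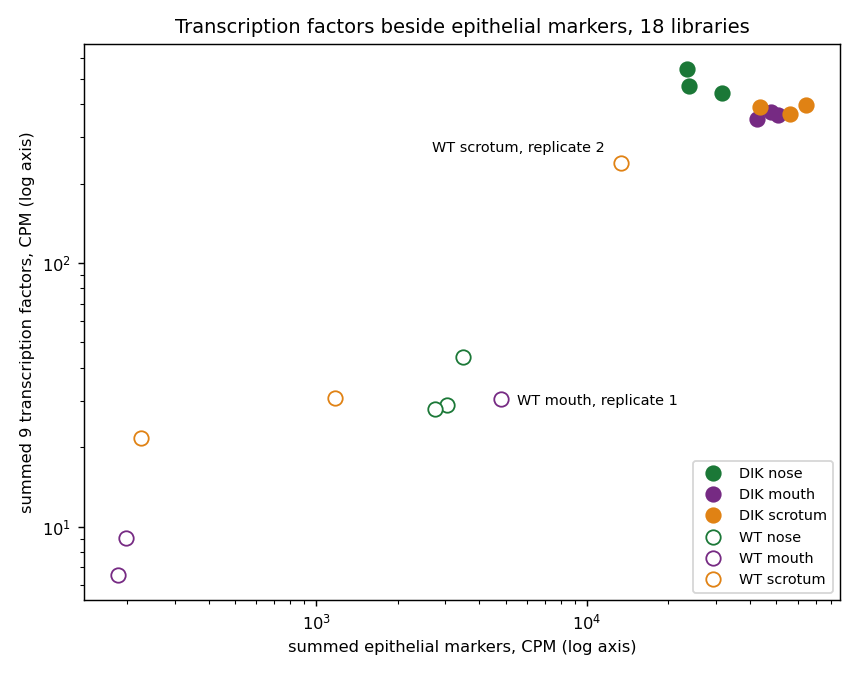
Summed level of the 9 factors against the summed epithelial markers in each of the 18 libraries, both in CPM on log axes, filled for DIK and open for WT. The 9 DIK libraries sum to between 351.8 and 542.5 CPM of the factors, WT scrotum replicate 2 to 238.6 CPM, and the other WT libraries to at most 43.8 CPM.

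Over all 18 libraries the 9 factors varied together to different degrees. Both the gap between tumour and WT libraries and the spread within groups, such as that of WT scrotum replicate 2, enter these correlations. The highest Pearson r of log2 CPM between 2 of the factors was 0.976, for GRHL3 and KLF4, followed by 0.961 for OVOL1 and GRHL3. GRHL2 had an r of 0.277 to 0.616 with the other 8. OVOL1 and ZNF750 had an r of 0.957, and of 0.954 over the 9 WT libraries, which include WT scrotum replicate 2, but of 0.266 over the 9 DIK libraries. After removal of the group means, r was 0.89 for GRHL3 and KLF4, 0.794 for OVOL1 and GRHL3, and 0.944 for OVOL1 and ZNF750. For SOX2 with the other 8 it was then -0.598 to -0.119. Among 8632 genes with a mean of at least 5 CPM, those most like TP63 over the 18 libraries were CLIP4 (r = 0.975), JAML (0.968), ARHGAP32 (0.965), PRDX2 (0.964) and FAM110A (0.962). The gene most like GRHL3 was PKP1 (0.992), a desmosomal plaque protein. RAB25 (0.983), an epithelial trafficking GTPase, was the one most like GRHL1. For ZNF750 it was TRIM29 (0.983), ahead of the desmosomal genes PKP3 (0.977) and DSP (0.976). SULT2B1 (0.985), a sterol sulfotransferase of epidermis, was most like OVOL1. TIAM1 (0.987) was most like KLF4, followed by CERS3 (0.982), a ceramide synthase of the skin barrier. FAM89A (0.973) was most like KLF5. The closest genes to GRHL2 and SOX2 had lower r, 0.923 for BSPRY with GRHL2 and 0.932 for ADA with SOX2. After removal of the group means ADA had an r of only 0.284 with SOX2. For the other like genes named here that value ran from 0.637 (PRDX2 with TP63) to 0.956 (PKP1 with GRHL3).

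The genes around these factors were followed in 6 lists, chosen with results of these data known. As with SOX2, list genes with few WT counts could pass the filter on low counts only through their DIK libraries. The shares called higher below include such genes, which were not set apart. Of 26 other epithelial transcription factors tested, 15 were called higher and 1 lower in the nose, 23 higher in the mouth and 10 higher in the scrotum. These are 57.7%, 88.5% and 38.5% called higher, against 21.9%, 22.7% and 19.4% of all genes tested. The factor called lower in the nose was SOX9, at -2.30, and that call was lost without DIK nose replicate 1 or 3 or WT nose replicate 3. PITX1, a homeobox factor of oral and hindlimb development, was at 11.4, 9.67 and 93.3 CPM in DIK nose, mouth and scrotum, against 0.772 and 2.12 CPM in WT nose and scrotum and no count in WT mouth. It was called higher at all 3 sites, with adjusted p of 9.5e-05, 9.19e-07 and 1.19e-07 in edgeR. PITX1 kept its call at each site when any 1 library of that site was left out. The list's median difference was 2.89, 4.54 and 1.71 log2 units in the nose, mouth and scrotum, and the mouth median was 4.37 with 3 genes that had no WT mouth count set to their lower bound. The mouth median was 6.04 without WT mouth replicate 1.

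Of 19 basal layer genes and p63 targets, 12 were called higher in the nose, 14 higher and 1 lower in the mouth, and 10 higher and 1 lower in the scrotum, with medians of 4.20, 3.35 and 2.69 log2 units. The shares called higher were 63.2%, 73.7% and 52.6%, against 21.9%, 22.7% and 19.4% of all genes, and the mouth median was 5.26 without WT mouth replicate 1. The lower one was DST, the dystonin gene of hemidesmosomes, at -0.90 in the mouth and -0.89 in the scrotum, where the call was lost without DIK scrotum replicate 2. CDH3, which encodes P-cadherin, was at 91.5, 180.6 and 180.1 CPM in DIK nose, mouth and scrotum, against 4.25, 3.62 and 5.46 CPM in WT. Its log2 difference was 4.83, 5.64 and 4.98, called at all 3 sites. The scrotum value was 6.61 without WT scrotum replicate 2, and the nose value 4.18 without DIK nose replicate 2. Of 23 late differentiation genes, 23 were called higher in the nose, 22 in the mouth and 10 in the scrotum, with DSC1, a desmosomal cadherin, lower in the scrotum. The shares called higher were 100%, 95.7% and 43.5%, against the same shares of all genes. Some of these genes entered the test through their DIK libraries, such as DSC1, at 158.9 CPM in DIK nose and 0.14 in WT nose. The median differences were 8.04, 7.62 and 2.09 log2 units, and 7.46 in the nose with 2 genes that had no WT nose count set to their lower bound. DSC1 was at -5.96 in the scrotum, and without WT scrotum replicate 2 it was at -1.56 and not called. PADI1, a peptidylarginine deiminase of the upper epidermis, was at 58.5, 14.96 and 3.995 CPM in DIK nose, mouth and scrotum, against 0.640, 0.0537 and 1.04 CPM in WT. CRNN, the cornulin gene of mucosal squamous epithelium, was at 2708, 15.9 and 1117 CPM, against 8.50, 1.05 and 7.89 CPM in WT. The levels of both thus differed widely from tumour to tumour.

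Of 16 junction and protease genes linked to grainyhead-like factors, 4 were called higher and 2 lower in the nose, 9 higher and 1 lower in the mouth, and 5 higher in the scrotum, with medians of 1.80, 2.75 and 2.02 log2 units. In the nose 25% were called higher and 12.5% lower, against 21.9% and 20.1% of all genes, so the nose count is near the background. In the mouth and scrotum 56.2% and 31.2% were called higher, against 22.7% and 19.4% of all genes. TGM1 and TGM5, which encode transglutaminases of the cornified envelope, were higher in the nose by 6.94 and 6.44 log2 units. CLDN7, a tight junction claudin, differed by -4.82 ± 0.732 in the nose (adjusted p = 1e-04 in edgeR). EPCAM differed by -4.18 ± 1.31 there (adjusted p = 0.0206 in edgeR), a call lost without any 1 of the DIK nose libraries. CLDN7 was also the gene called lower in the mouth, at -2.01, and that value was -0.45 and not called without WT mouth replicate 1. The CLDN7 call in the mouth was lost without DIK mouth replicate 1 or 3 too, and the value was -2.72 without replicate 2. TGM1 in the nose was 8.63 without WT nose replicate 1, 6.08 without replicate 2 and 6.09 without replicate 3. Without WT mouth replicate 1 the count in the mouth was 14 higher and 0 lower, where 22.2% of all genes were called higher, and the median was 6.55.

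Of 14 Notch pathway genes, 5 were called higher and 1 lower in the nose, 6 higher and 4 lower in the mouth, and 2 higher and 1 lower in the scrotum, with medians of 0.89, -0.27 and 0.33 log2 units. The shares called higher were 35.7%, 42.9% and 14.3%, against 21.9%, 22.7% and 19.4% of all genes, and the shares called lower 7.14%, 28.6% and 7.14%, against 20.1%, 24.3% and 24%. The gene called lower at every site was MAML2, a Notch coactivator, at -1.13, -2.69 and -1.82, and its nose call was lost without WT nose replicate 3. NRARP, a Notch target and feedback inhibitor, was higher by 3.11, 5.87 and 2.71 log2 units. JAG1, a Notch ligand and p63 target, was higher by 2.04 and 2.40 in the nose and mouth, and its scrotum value of 0.59 was not called. NRARP was 4.66 in the nose without WT nose replicate 3 and 4.98 in the scrotum without WT scrotum replicate 2. Of 6 repressors known from mesenchymal cells, 1 was called higher in the nose, 1 higher and 4 lower in the mouth, and 2 higher and 2 lower in the scrotum, with medians of 0.13, -2.42 and -0.998 log2 units. The shares called higher were 16.7%, 16.7% and 33.3%, against 21.9%, 22.7% and 19.4% of all genes. The shares called lower in the mouth and scrotum were 66.7% and 33.3%, against 24.3% and 24%. SNAI2, which basal keratinocytes also use, was higher by 2.74, 2.22 and 2.43 log2 units, and by 3.26 in the scrotum without WT scrotum replicate 2. ZEB1 and ZEB2, repressors of E-cadherin, were lower in the mouth, at -2.98 and -3.65, and in the scrotum, at -2.09 and -2.21. Summed fibroblast markers were also lower in the tumours, at 2146 to 2553 CPM in DIK mouth against 15690 to 25000 in WT mouth, and their part in the ZEB1 and ZEB2 values was not tested.

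Without WT scrotum replicate 2, the number called higher in the scrotum was 22 of the 26 epithelial transcription factors, 16 of the 19 basal layer genes, 14 of the 16 grainyhead-linked genes and 22 of the 23 late differentiation genes, where 24% of all genes tested were called higher. For the Notch pathway it was 6 of 14 higher and 2 lower, and for the mesenchymal repressors 2 higher and 2 lower of 6. The medians of these 4 lists were then 3.85, 4.70, 5.39 and 7.96 log2 units.

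**Figure D5:**
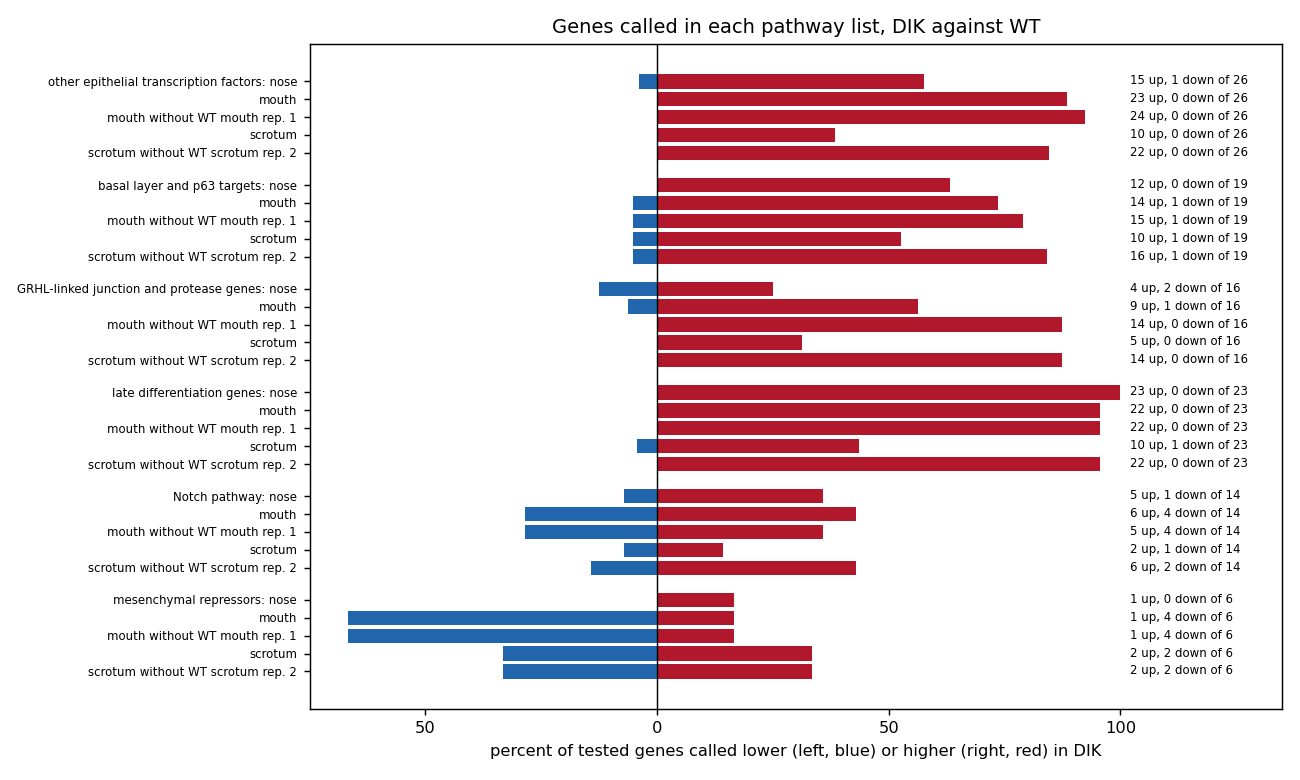
Number of genes called higher and lower in DIK than in WT (edgeR, adjusted p under 0.05) in each gene list, as a share of the genes tested, for nose, mouth and scrotum, and for mouth without WT mouth replicate 1 and scrotum without WT scrotum replicate 2. Late differentiation genes were called higher for 23 of 23 genes in the nose and 10 of 23 in the scrotum.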

How the data were processed

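Total RNA of 18 tissue samples, kept in RNAlater and extracted with TRIzol, was made into mRNA libraries per the labels' protocols. The authors deposited raw read counts per gene, made with HTSeq 0.11.2, HISAT2 2.1.0 and fastp according to the tools that the submitters' processing notes list. Build, annotation and strandedness of the counting were not stated, and no coordinates or sequences are printed. All 9 symbols were matched by name in RefSeq.

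Samples were grouped by genotype and tissue from their titles. The counts were fitted with edgeR 4.0.16 in R 4.3.3 (TMM scaling, filterByExpr with a minimum count of 10, robust quasi-likelihood, 6 group means over 18 libraries). That left 12895 of 27339 genes, at least 99.1% of the counts of each library, and a common biological coefficient of variation of 36.1%. Adjusted p-values are Benjamini-Hochberg within each contrast. Log2 CPM for correlations and for the log2 ratio of KLF4 to KLF5 used a prior count of 2. No 2 libraries had identical counts. The code was tested on simulated data.

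Alternatives were DESeq2 1.42.0, limma 3.58.1 (voom with quality weights), other scalings, filters and thresholds, fits of only the groups compared, a replicate block, and each library left out. From each gene list, up to 3 called genes per direction and site with the smallest adjusted p could be named, and those printed were taken from them. The genes most like each factor were the 3 (5 for TP63) with the highest r. The 9 factors and the lists were chosen with earlier results of these data known.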

Additional observations from a re-analysis of the deposited data

Results flagged for a closer look

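Differences between DIK and WT that depended on the site, by the interaction test in edgeR, came to 4 values for the squamous factors. KLF4 gave -4.22 for scrotum against nose and -3.01 for scrotum against mouth, GRHL3 gave -6.16 for scrotum against mouth, and TP63 gave -5.03 for scrotum against mouth. Only the TP63 value kept its call with each single library left out. The GRHL3 value carries little weight, because GRHL3 entered the test only through its DIK libraries. WT scrotum replicate 2, whose epithelial markers stood above those of the other WT scrotum libraries, entered all 4, and its part was measured by leaving it out, as given with the interactions above.

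SOX21, picked after its values were seen, gave -8.75 for scrotum against nose (adjusted p = 0.0167 in edgeR) and -9.19 for scrotum against mouth (adjusted p = 0.00305 in edgeR). Without WT scrotum replicate 2 the values were -3.99 and -4.44, and neither was called (adjusted p = 0.284 and 0.211 in edgeR). The first was also lost without WT nose replicate 2 (-11.01) or replicate 3 (-7.69), and without DIK scrotum replicate 2 the values were -9.67 and -10.12, both called. WT libraries had almost no SOX21 counts apart from that one, so these sizes rest on few counts. SOX21 passed the filter on low counts through the DIK nose and DIK mouth libraries and WT scrotum replicate 2. For a gene picked from the same values that were tested, these calls carry little weight.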

How the results depend on the processing

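Counts here are of the 9 factors called, and the cause of each change was not tested. For DIK against WT, leaving out 1 library gave 6 to 7 in the nose, 8 to 9 in the mouth and 3 to 9 in the scrotum. No single omission of a nose library thus kept the nose count of 8. It was 8 with WT scrotum replicate 2 and WT nose replicate 1 left out jointly. The scrotum count of 4 was 9 with voom, 6 with DESeq2 and 2 with only the groups compared. For the interactions, these omissions gave 0 to 2 (mouth minus nose), 0 to 3 (scrotum minus nose) and 1 to 5 (scrotum minus mouth). Mouth minus nose, 0, was 1 with DESeq2, 3 with voom and 2 with only the groups compared. Scrotum minus nose, 1, was 2 with a filter of 10 CPM, with DESeq2 and with voom, and 0 with only the groups compared or adjusted p under 0.01. Scrotum minus mouth, 3, was 1 with no filter, with only the groups compared or with adjusted p under 0.01. Between tumours the omissions gave 0 to 0, voom gave 1, 3 and 2, and fits of only the groups compared gave 1, 2 and 2 (mouth minus nose, scrotum minus nose, scrotum minus mouth). For WT mouth minus nose, 1, the omissions gave 0 to 2, no filter 0, voom 4, only the groups compared 2 and adjusted p under 0.01 0. For WT scrotum minus nose, 1, they gave 0 to 3, library-size scaling, no filter, only the groups compared and adjusted p under 0.01 each gave 0, and the 10 CPM filter and DESeq2 gave 2. For WT scrotum minus mouth, 6, they gave 2 to 7, voom 3 and only the groups compared 0. Of the single-factor differences between DIK and WT, only GRHL2 in the mouth changed sign: 0.14 with a replicate block, 1.62 with voom, 0.13 without DIK mouth replicate 1 and 0.01 without DIK mouth replicate 3, with a range of -0.47 to 2.09 over the libraries left out singly (2.09 without WT mouth replicate 1).

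Equal replicate numbers did not pair DIK with WT: deviations from the group means correlated at -0.0483 to 0.0886. With the replicate number as a block, 6 factors were called in the scrotum, adding TP63 (1.59) and KLF4 (1.73), and 0 for WT scrotum minus nose, while the nose and mouth counts stayed at 8. Scaling by library size alone moved the median of all genes to -0.29 in the mouth and -0.21 in the scrotum, and upper-quartile scaling to -0.15 and -0.17. Depth limits SOX2, which had 0 counts in WT nose and 3 in WT mouth, each summed over 3 libraries.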
